A study of Mus musculus with 4 samples.

Results

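The naive pluripotency transcription factors were described in a wild type line of mouse embryonic stem (ES) cells and in a line labelled Prep1-/-. Prep1 is a homeodomain protein of the TALE class that binds DNA together with Pbx partners and is encoded by Pknox1. The group was set by name and comprised 10 genes: Klf2, Klf4, Klf5, Esrrb, Tbx3, Tcfcp2l1, Zfp42, Nr0b1, Prdm14 and Dppa3. All 10 were found by symbol among the 22718 genes of the RNA-seq files. All 10 also had an RPKM (reads per kilobase of gene length, scaled by library size) above 1 in both libraries, as did 13218 genes in all.

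ES cells are derived from the inner cell mass of the blastocyst and can be held in a naive state, close to that of the preimplantation epiblast, or pass on to a primed state, close to that of the epiblast after implantation. In the naive state, LIF acting through Stat3, and Wnt signalling acting by relief of repression by Tcf7l1, keep up a set of ancillary factors around the core formed by Pou5f1 (Oct4), Sox2 and Nanog, while Fgf signalling through Erk drives the exit from it. The ancillary factors include zinc finger proteins of the Klf family, the orphan nuclear receptors Esrrb and Nr0b1, the T-box protein Tbx3, the CP2-type factor Tcfcp2l1 and the PR-domain protein Prdm14, which restrains Fgf receptor signalling and de novo DNA methylation. Zfp42 (Rex1) and Dppa3 (Stella) are used as markers of the naive state, and Dppa3 is a chromatin-associated protein that protects DNA from methylation changes.

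RNA was measured in 1 wild type library and 1 library labelled Prep1-/-, both from ES cells of C57BL/6 background grown on gelatin with serum and LIF. Per the study's methods the wild type and Prep1-/- cells were lines derived in the same laboratory, and the Prep1-/- library came from 1 line, KO2. Prep1 binding was measured by ChIP-seq in 1 immunoprecipitate from wild type R1 ES cells, per the protocol of the labels, although the strain label of that sample is C57BL/6. With 1 library per genotype there is no replicate check and no test, and the intervals given are exact 95% counting intervals that compare these libraries and not the genotypes.

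The read counts summed over all 22718 genes were 29596294 (wild type) and 25717811 (Prep1-/-), more than the reads per sample stated in the study's methods. Pknox1 had 505 wild type and 332 Prep1-/- reads, a KO/WT ratio (RPKM of the Prep1-/- over that of the wild type library) of 0.736 (interval 0.638 to 0.846), so its transcript was still counted in the library labelled Prep1-/-, which is named here by that label. Which part of the gene the allele lacks was not checked, as there is 1 value per gene. At the protein level, the study reports by immunoblot that Prep1 was lost in both of its Prep1-/- lines, KO2 among them. The 7 genes of chromosome Y had 0 reads in the wild type and 991 in the Prep1-/- library, so the lines differed in more than the Prep1 genotype, and effects of line and of genotype cannot be told apart. The defining ES cell genes were abundant in both libraries, with RPKM values of 323 and 360 for Pou5f1, 101 and 134 for Sox2, and 66.4 and 91.0 for Nanog in the wild type and Prep1-/- library, respectively. In bulk RNA, fewer cells of a type and less RNA per cell cannot be told apart.

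The naive factors spanned a wide range of levels. In the wild type library the RPKM ran from 2.63 for Prdm14 to 178 for Klf5, a 67.8-fold range, and in the Prep1-/- library from 7.72 to 201 for the same genes, a 26.0-fold range. The wild type order was Klf5, Esrrb, Klf2, Klf4, Nr0b1, Dppa3, Tcfcp2l1, Tbx3, Zfp42 and Prdm14. The only neighbours in it that were not separated by their exact Poisson intervals were Dppa3 and Tcfcp2l1, with RPKM values of 21.3 (19.0 to 23.8) and 20.1 (19.5 to 20.8). In the Prep1-/- library the order was the same except that Dppa3 came after Tcfcp2l1 and Tbx3, and neither Tbx3 and Dppa3 nor Zfp42 and Prdm14 were separated by counting error. Together the 10 genes took 0.257% of the summed wild type and 0.351% of the summed Prep1-/- counts.

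**Figure D1:**
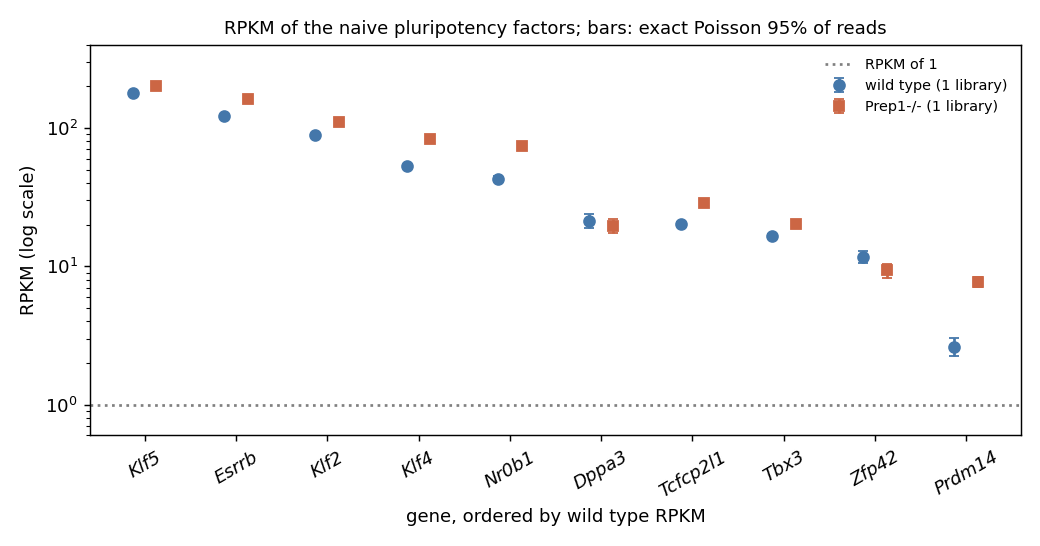
RPKM (log axis) of the 10 naive factors, ordered by wild type level, in the wild type library (circles) and the Prep1-/- library (squares), 1 library each, with exact Poisson 95% intervals of the read counts. The Prep1-/- square lies above the wild type circle for 8 genes and below it for Dppa3 and Zfp42, and Prdm14 shows the widest gap, from 2.63 to 7.72.

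The place of Esrrb in this order depended on the length behind the RPKM. That length was estimated from the deposited wild type RPKM, with the summed gene counts taken as library size. For Esrrb it was 2.96 times that of its longest GENCODE M1 transcript of 4300 bp, and for Tbx3 1.75 times. For Zfp42 and Dppa3 it was 0.640 and 0.602 times that of the longest transcript. Another library size would shift each such factor alike. The median of this factor over 12631 genes with at least 100 reads was 0.882 (quartiles 0.666 and 1.11). Counted per kilobase of the longest transcript, Esrrb came first with 10655 wild type reads per kb against 5098 for Klf5, and Tbx3 passed Tcfcp2l1 and Dppa3. The KO/WT ratio of a gene is free of its length, since the same length was used in both libraries.

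Compared between the libraries, 8 of the 10 naive factors had a higher RPKM in the Prep1-/- than in the wild type library, with intervals of the ratio wholly above 1. Prdm14, Nr0b1 and Klf4 passed the threshold for higher expression (RPKM above 1 in the Prep1-/- library and a KO/WT ratio above 1.5), and none of the 10 passed that for lower expression (wild type RPKM above 1 and a ratio below 0.7). Among the 14254 genes past an RPKM of 1 in at least 1 of the libraries, 6.91% were called higher and 13.3% lower, and 20.7% had an interval wholly above 1 and 36.3% one wholly below 1. The median ratio of the 10 genes was 1.29 (log2 0.36), beside 0.955 (log2 -0.07) for all genes with an RPKM above 1 in both libraries, of which 41.2% had a ratio above 1. With few reads a ratio passes a threshold more easily, and of the 8045 genes with at least 1000 reads in the libraries together 1.98% were called higher, as were 2 of the 7 naive factors of that depth, Nr0b1 and Klf4.

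**Figure D2:**
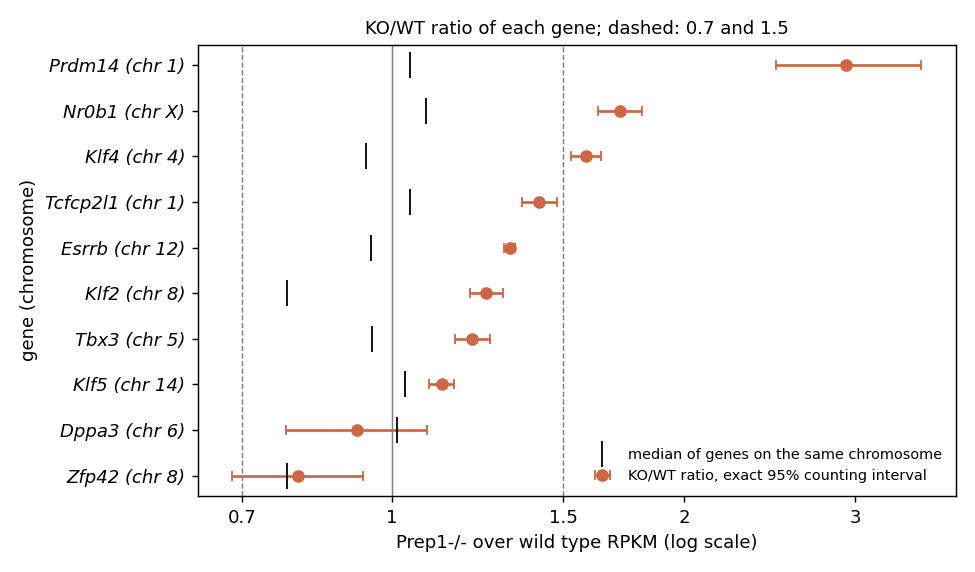
KO/WT ratio of RPKM (log axis) for each of the 10 naive factors with its exact 95% counting interval (points and bars), beside the median ratio of genes with RPKM above 1 on the same chromosome (black ticks). Prdm14 at 2.94, Nr0b1 at 1.72 and Klf4 at 1.58 lie beyond the dashed line at 1.5, and Zfp42 at 0.801 lies next to the chromosome 8 median of 0.779.

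Klf2, Klf4 and Klf5 encode zinc finger factors that bind GC-rich sites and can stand in for each other in ES cells. Klf4, a target of LIF and Stat3 and a reprogramming factor, lies at chr4:55540013-55545347 (minus strand, mm9). It had 5270 wild type and 7467 Prep1-/- reads, or RPKM values of 52.8 and 83.7, and a ratio of 1.58 (1.53 to 1.64). Klf2, at chr8:74842932-74845555 (plus strand), had RPKM values of 88.2 and 110 and a ratio of 1.25 (1.20 to 1.30). Klf5, at chr14:99697910-99712624 (plus strand), the most abundant of the group by RPKM, had values of 178 and 201 and a ratio of 1.13 (1.09 to 1.16). The 3 ratios were thus in the order Klf4, Klf2, Klf5, with intervals that did not overlap. Klf4 stood at 0.296 of the Klf5 RPKM in the wild type and at 0.417 of it in the Prep1-/- library.

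Of the wider Klf family, 17 genes were found, 15 of them past an RPKM of 1 in at least 1 library. Besides Klf4, the X-linked Klf8 was called higher, with a ratio of 1.57 (1.44 to 1.71) at RPKM values of 3.78 and 5.93. Klf6, Klf15 and Klf1 were called lower. These 2 higher and 3 lower calls among 15 genes stand beside 6.91% and 13.3% over all genes. Klf6 had RPKM values of 35.1 and 23.6 and a ratio of 0.673 (0.641 to 0.705), and Klf15 had 5.76 and 3.68 and a ratio of 0.639 (0.568 to 0.715). Klf1 had only 49 and 30 reads, and its interval of 0.420 to 1.10 spanned 1. The median ratio of the 15 genes was 1.08.

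Esrrb, an orphan nuclear receptor that Gsk3 and Tcf7l1 hold down and that shares many sites with the core factors, lies at chr12:87702067-87862578 (plus strand) with 7 annotated transcripts. It had by far the most reads of the group, 45815 in the wild type and 54152 in the Prep1-/- library, or RPKM values of 121 and 161, and a ratio of 1.32 (1.31 to 1.34). Nr0b1 (Dax1), an orphan receptor without the usual DNA-binding domain that acts as a corepressor, lies on the X chromosome at chrX:83437103-83441286 (plus strand). It had 2362 and 3627 reads, RPKM values of 43.1 and 73.9, and a ratio of 1.72 (1.63 to 1.81), the 357th highest of the 13218 expressed genes. The median ratio of the 548 expressed genes of the X chromosome was 1.08, and Nr0b1 had the 42nd highest ratio among them. The relative Esrra was at 0.881 (0.782 to 0.991).

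Tcfcp2l1, an effector of LIF and Stat3 at chr1:120524522-120581744 (plus strand), had 4033 and 5111 reads, RPKM values of 20.1 and 28.5, and a ratio of 1.42 (1.36 to 1.48), the nearest to the threshold of 1.5 from below. Tbx3, which lies at chr5:120120678-120134733 (plus strand) and is reached through the phosphoinositide 3-kinase branch downstream of LIF, had RPKM values of 16.6 and 20.1 and a ratio of 1.21 (1.16 to 1.26). The list of relatives held 11 genes, set beside the naive factors by family or, for Dppa5a, by name only. Of these, 7 were past an RPKM of 1. Among the 7, 1 was called higher (Prdm1) and 1 lower (Tbx4), beside 6.91% and 13.3% over all genes. Tcfcp2 was at a ratio of 0.997 (0.861 to 1.15), Ubp1 at 0.797 (0.763 to 0.833), and Tbx4 at 0.376 (0.248 to 0.540) with 112 and 37 reads.

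Prdm14, at chr1:13103538-13117244 (minus strand), was the least abundant of the group and had the highest ratio. It had 186 wild type and 490 Prep1-/- reads, RPKM values of 2.63 and 7.72, and a ratio of 2.94 (2.48 to 3.51), the 69th highest of the 13218 expressed genes. The genes closest to it in the levels of both libraries were Inhbb, an inhibin and activin subunit, with RPKM values of 2.61 and 7.32, and Liph, a lipase, with 2.30 and 7.89. Of 8 partners and targets of Prdm14, Fgfr2 was called higher at 1.58 (1.44 to 1.74), and none was called lower. Over all genes 6.91% were called higher and 13.3% lower. By RT-qPCR, in contrast, the study reports reduced Fgfr2 RNA in Prep1-/- cells. Fgfr1, on chromosome 8, was at 0.708 (0.692 to 0.724), just short of the lower threshold. The corepressor Cbfa2t2, with which Prdm14 forms a complex, had a ratio of 1.25 (1.22 to 1.29). Ezh2 and Suz12 of Polycomb complex PRC2 had 1.39 (1.33 to 1.45) and 1.36 (1.27 to 1.45), and the de novo methyltransferase Dnmt3b had 1.01 (0.988 to 1.02).

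Zfp42 and Dppa3, the marker genes of the group, were the only members without a ratio above 1. Zfp42, a zinc finger gene at chr8:44380422-44392363 (minus strand), had 397 and 284 reads, RPKM values of 11.7 and 9.35, and a ratio of 0.801 (0.684 to 0.934). Dppa3, at chr6:122576428-122580290 (plus strand), had 316 and 260 reads, RPKM values of 21.3 and 19.7, and a ratio of 0.921 (0.778 to 1.09), an interval that spans 1, so no difference could be detected with so few reads. The genes closest to Zfp42 in both levels were Fam175b (RPKM 11.9 and 9.36) and Sh3d19 (11.8 and 9.16), and those closest to Klf5 were Tomm40 (186 and 195), of the mitochondrial import pore, and Ndufb9 (183 and 191), of respiratory complex I.

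Dppa3, Zfp42, Klf4 and Klf5 have partial copies elsewhere in the mm9 genome. Per the study's methods, reads were aligned to predefined Ensembl transcripts. Only a copy that is part of such a transcript could therefore share their reads. A copy was counted where at least 200 bases and 30% of the longest transcript matched at 90% identity or more. For Dppa3 there were 3, of which the closest, a pseudogene at chrX:35039886-35040704 with 97.8% identity over 801 matched bases, had 183 and 204 reads of its own. With these reads added to those of Dppa3 the ratio was 1.04 (0.914 to 1.18), on the other side of 1 from that of Dppa3 alone. The copies of Zfp42 (on chromosome 15, 98.1% identity), Klf4 (on chromosome 9) and Klf5 (on chromosome 7) overlap no annotated gene.

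The ratio of a gene also has to be read beside that of its chromosome. The 702 expressed genes of chromosome 8, which carries Klf2 and Zfp42, had a median ratio of 0.779, and 199 of them were called lower and 15 higher. On the other chromosomes that carry naive factors the median lay between 0.940 (chromosome 4) and 1.08 (X). Taken relative to the chromosome median, Klf2 was at 1.60, above the threshold of 1.5, and Zfp42 at 1.03, on the other side of 1. Relative to their chromosomes, 9 of the 10 genes had a ratio above 1 and 4 above 1.5. On this scale as many expressed genes of a chromosome lie above 1 as below it, by construction. The share of all genes above 1.5 on it was not computed. Klf2 had the 29th highest ratio of the 702 genes of chromosome 8, and Zfp42 the 306th.

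The genes within 500 kb were compared in the same way. The 15 expressed genes within that distance of Klf2 had ratios of 0.585 to 0.952, all lower than that of Klf2, with a median of 0.780, and 6 were called lower. Around Prdm14 the 4 expressed genes had ratios of 0.807 to 1.21, none past a threshold. The 6 genes near Tcfcp2l1 had ratios of 0.935 to 2.24 with a median of 1.48, and 3 of them were called higher. The 5 near Klf5 had ratios of 1.15 to 1.43 with a median of 1.32, all above the 1.13 of Klf5 itself. Whether the region played a part in these ratios was not tested.

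The other naive state markers were described as a separate list of 12 genes, all with an RPKM above 1. In it 3 genes were called higher and none lower, beside 6.91% and 13.3% over all genes. Of the 12, 11 had a ratio above 1, beside 41.2% of genes with an RPKM above 1 in both libraries. The median was 1.25. Tcl1, a coactivator of Akt, had RPKM values of 16.7 and 34.2 and a ratio of 2.05 (1.90 to 2.20). Nr5a2, an orphan nuclear receptor that can replace Pou5f1 in reprogramming, had 9.91 and 16.9 and a ratio of 1.70 (1.56 to 1.87). Jam2, an adhesion protein, had 7.71 and 12.7 and a ratio of 1.65 (1.54 to 1.76). Zfp57, the imprint-keeping zinc finger gene with the most reads of the list, was at 1.10 (1.08 to 1.13), and Fbxo15 had the lowest ratio at 0.837 (0.757 to 0.924).

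The 10 genes of ES cell identity held no call in either direction, beside 6.91% called higher and 13.3% lower over all genes. A ratio above 1 was seen for 9 of them, beside 41.2% of genes with an RPKM above 1 in both libraries. The median was 1.20. Nanog was highest at 1.37 (1.32 to 1.42), followed by Sox2 at 1.32 (1.28 to 1.36). Sall4, with the most reads, was at 1.25 (1.23 to 1.27), and Pou5f1 at 1.11 (1.08 to 1.15). Zfp281 was lowest at 0.861 (0.832 to 0.890).

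Of the genes that feed into the naive factors, those past a threshold were 1 of 7 in the LIF and Stat3 list, 1 of 8 in the Wnt list and 2 of 10 in the Fgf and Erk list, beside the 6.91% called higher and 13.3% called lower over all genes. In the LIF and Stat3 list, the receptor gene Lifr was called higher at 1.97 (1.73 to 2.25), with RPKM values of 4.59 and 9.02, as 1 of 7 genes. Stat3 itself was at 1.09 (1.04 to 1.14) and Socs3, a feedback inhibitor and target of Stat3, at 0.975 (0.927 to 1.03), with Jak2 lowest at 0.770 (0.642 to 0.919). In the Wnt list, Axin2, a target and feedback inhibitor of the pathway, was called lower as 1 of 8 genes, with RPKM values of 13.8 and 6.32 and a ratio of 0.458 (0.423 to 0.496). Ctnnb1 (beta-catenin) was at 0.935 (0.915 to 0.955) and the repressor Tcf7l1 at 1.20 (1.16 to 1.24).

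In the Fgf and Erk list of 10 genes, Fgfr2 was called higher and Dusp6, a phosphatase and target of Erk, lower, at 0.559 (0.535 to 0.584) with RPKM values of 71.1 and 39.7. Fgf4, the main Fgf ligand of ES cells, was at 1.22 (1.17 to 1.27). By RT-qPCR, in contrast, the study reports less Fgf4 RNA in Prep1-/- than in wild type ES cells, and less Fgfr2 RNA in Prep1-/- cells. The medians of the LIF, Wnt and Fgf lists were 0.975, 0.983 and 0.947, beside 0.955 for all expressed genes.

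Genes of the primed and formative epiblast went both ways. Among 11 with an RPKM above 1, Otx2, a homeobox factor of the formative state, was called higher with RPKM values of 1.62 and 3.57 and a ratio of 2.20 (1.87 to 2.61). Foxd3 was also called higher at 1.95 (1.72 to 2.20). T (Brachyury), which marks the onset of mesoderm, was called lower with RPKM values of 20.5 and 5.09 and a ratio of 0.249 (0.215 to 0.285). Fgf5, the classic primed marker, was below an RPKM of 1 in both libraries, with 44 and 12 reads. Of the 11 genes, 2 were called higher and 1 lower, beside 6.91% and 13.3% over all genes. Dnmt3b had the most reads, and the median of the 11 genes was 1.01.

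Among 9 germ cell factors, with which Prdm14 and Dppa3 are also expressed in the embryo, Prdm1 (Blimp1) and Ifitm3 (Fragilis) were called higher. None was called lower, beside 6.91% called higher and 13.3% lower over all genes. Prdm1 had RPKM values of 1.36 and 2.54 and a ratio of 1.87 (1.59 to 2.22), and Ifitm3 had 457 and 695 and a ratio of 1.52 (1.47 to 1.57). Nanos3, on chromosome 8, was lowest at 0.706 (0.564 to 0.877), and Kdm1a, with the most reads, was at 0.951 (0.926 to 0.976). The median of the list was 1.25.

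**Figure D3:**
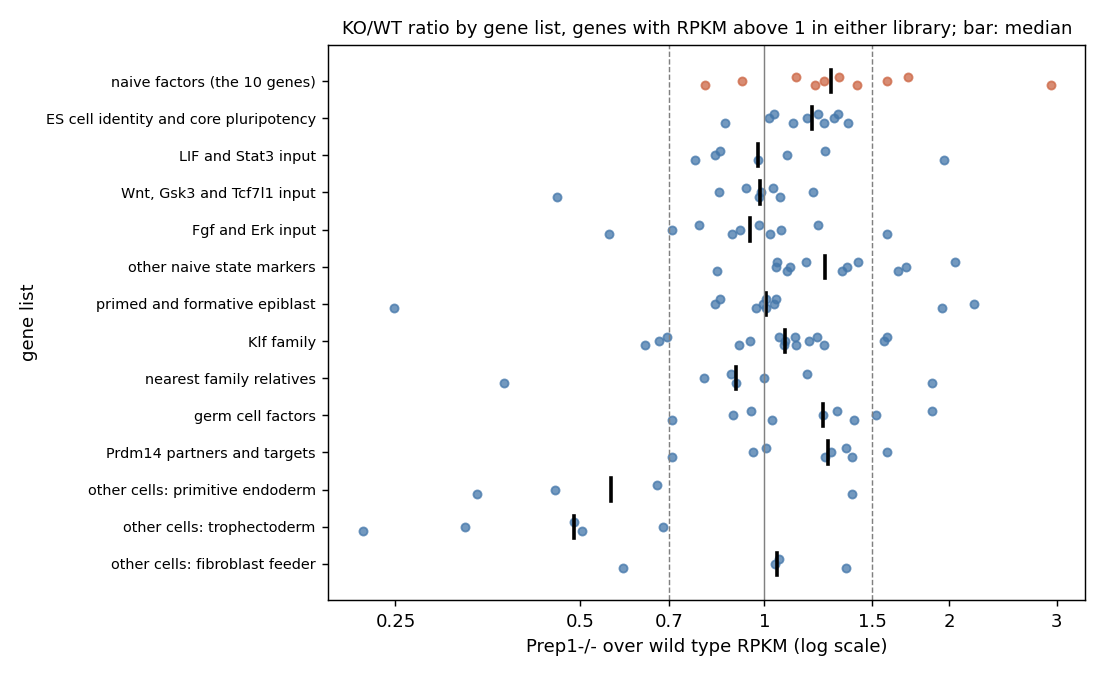
KO/WT ratio of RPKM (log axis) of the 10 naive factors (top row) and of 13 other gene lists, each point a gene past an RPKM of 1 in wild type or Prep1-/- cells and each bar the list median, with dashed lines at 0.7 and 1.5. The naive factors have a median of 1.29 and no gene below 0.7, whereas the trophectoderm row lies wholly below 0.7.

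Markers of other cell types also differed between the libraries. Of 6 trophectoderm markers, 5 were called lower, beside 13.3% over all genes, and the summed RPKM of the 6 went from 66.5 to 30.1. Cdx2, which defines the lineage, had 186 and 36 reads and a ratio of 0.221 (0.147 to 0.311), Hand1 was at 0.325 (0.280 to 0.375), Eomes at 0.504 (0.443 to 0.572), Krt7 at 0.489 (0.447 to 0.533) and Tfap2a at 0.683 (0.507 to 0.906). The sixth, Elf5, had 3 and 7 reads. Of 7 primitive endoderm markers, Gata4 at 0.339 (0.300 to 0.382), Gata6 at 0.456 (0.308 to 0.646) and Dab2 at 0.667 (0.559 to 0.791) were called lower, Sox7 was at 1.39 (1.09 to 1.79), and the summed RPKM went from 10.8 to 6.10. Of 8 fibroblast markers, checked because ES lines are often derived on feeder cells, 7 had a ratio above 1, with a median of 1.44, and their summed RPKM was 26.2 and 31.3. None was called higher. Only 4 had an RPKM above 1 in at least 1 library, and 3 of these had a ratio above 1, with a median of 1.05. Col1a1 was at 1.36 (1.25 to 1.48), Twist2 was called lower at 0.588 (0.386 to 0.862), Postn had 6 and 33 reads and a ratio of 5.43 (2.54 to 18.0) at RPKM values below 1, and Lum had 0 and 2 reads. The part of these markers in the ratios of the naive factors was not tested.

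Prep1 binding near the naive factors was read from 3902 deposited peaks. The peak score, the enrichment over input as a fold rounded to a whole number, ran from 4 to 336 with a median of 21. A gene was counted as having a peak where one overlapped the region from 500 bp before to 100 bp after its start, its body, or the 20 kb on either side of the start. By this rule 2 of the 10 naive factors, Klf5 and Klf2, had a peak, beside 26.5% of the 12707 placed genes with an RPKM above 1 in both libraries. Prdm14, Nr0b1 and Klf4, the 3 genes called higher, were not among them, and of all 894 placed genes called higher 18.7% had a peak. The antibody can weakly bind Prep2 as well, per the study's methods.

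The Klf5 peak at chr14:99697415-99698382 had a score of 112, the 414th highest, and reached from -495 to +472 bp around the annotated start, into the first exon. The Klf2 peak at chr8:74848513-74849023 had a score of 10, among the weakest, as 93.2% of peaks had that score or more. It was intergenic and began 5.58 kb downstream of the start, 2.96 kb beyond the end of the gene. The nearest peaks to the starts of Prdm14 (chr1:13066358-13066739, score 11) and Klf4 (chr4:55443981-55444446, score 15) were also intergenic and lay 50.5 and 101 kb downstream, the latter closer to Rad23b than to Klf4. The peak nearest to Dppa3, 103 kb upstream with a score of 41, overlapped an exon of Mfap5. For the other 5 genes the nearest peak was 327 kb (Esrrb) to 7986 kb (Nr0b1) away.

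**Figure D4:**
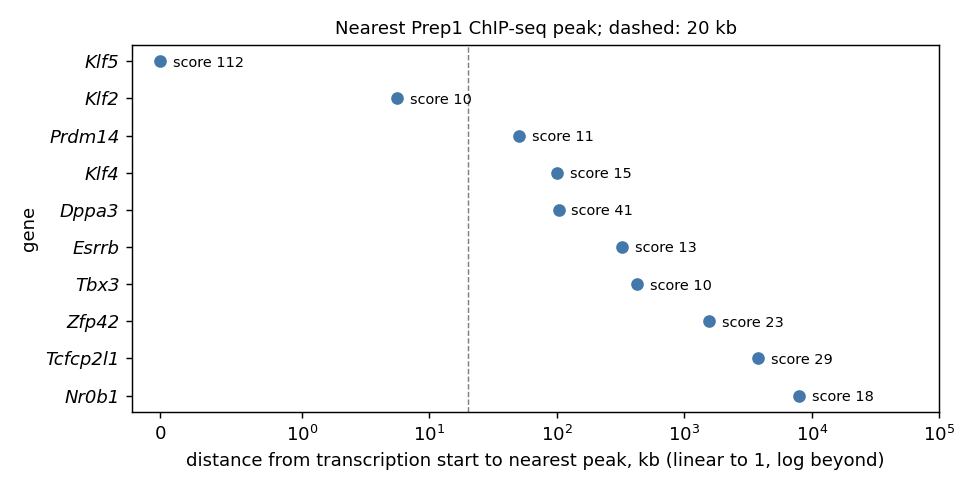
Distance in kb (linear up to 1, log beyond) from the annotated start of each of the 10 naive factors to the nearest Prep1 ChIP-seq peak, labelled with the score of that peak. Klf5 at 0 kb and Klf2 at 5.58 kb lie within the dashed line at 20 kb, and Nr0b1 is farthest at 7986 kb.

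The sequences of the peaks nearest to Klf5, Klf2, Prdm14 and Klf4 are shown because these lie closest to the starts of genes of the group. Those nearest to Prdm14 and Klf4 lie outside the 20 kb window, and a link with these genes was not tested. Over the placed genes with an RPKM above 1 in both libraries, the median distance to the nearest peak was 86.0 kb. They were read from the mm9 genome, on the strand that holds the match and with 30 bases on either side. The 8-letter motif TGANTGAC, a Pbx site next to a Prep site, was searched on both strands. It was found in 43.7% of whole peaks, in 39.6% of the central 300 bases of peaks and in 3.67% of promoters of the same 300 bases (250 before to 50 from the start). The study's own search gave a longer and looser consensus, tGAxtGaCag, which it found in a larger share of the peaks. That consensus was not searched here, so its presence in the Klf5 peak was not tested. The peaks nearest to Klf2, Prdm14 and Klf4 held 1 match each to the 8-letter motif, marked in capitals. The Klf5 peak held none in its 968 bases. The capitals there mark the first stretch found with the fewest differing letters, 2, which begins at -302 bp from the start. Whether other stretches of that peak come as close to the motif was not recorded. A stretch with at most 1 letter different was present in 93.8% of peaks. The promoters of the 10 genes held no match. A match is a description of the letters and not a binding site.
Klf5 (chr14:99697578-99697645, plus strand): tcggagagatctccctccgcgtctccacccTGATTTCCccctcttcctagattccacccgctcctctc
Klf2 (chr8:74848859-74848926, plus strand): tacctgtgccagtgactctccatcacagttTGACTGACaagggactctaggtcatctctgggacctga
Prdm14 (chr1:13066476-13066543, minus strand): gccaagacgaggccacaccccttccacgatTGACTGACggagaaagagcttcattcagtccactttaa
Klf4 (chr4:55444299-55444366, minus strand): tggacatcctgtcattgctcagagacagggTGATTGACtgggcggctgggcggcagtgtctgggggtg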

How the data were processed

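For each gene of Ensembl release 63 on mm9, the authors deposited, per library, the read count as a whole number and the RPKM, made with RSEM and DESeq from paired-end 50 bp reads of polyA RNA. The deposited peak score is the MACS enrichment over input of 1 immunoprecipitate, after BWA alignment to mm9, rounded to a whole number. Program versions are not given in the sources used here. The RPKM was made from the count plus 1, since the KO/WT RPKM ratio was 1.12 times the ratio of these counts for every gene with finite values. RPKM was listed as Inf for 85 genes, which were left out. The input sample was not analysed here.

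The ratio thresholds of 0.7 and 1.5 and the RPKM minimum of 1 are those of the study, but the minimum was applied here to the Prep1-/- library for higher and to the wild type library for lower calls. Nothing was added to the RPKM beyond the 1 read it already holds. Clopper-Pearson intervals of ratios and Poisson intervals of levels (95%) cover counting error only, and PCR copies make the true error larger. Scripts used Python 3.11.15, SciPy 1.17.1, pysam 0.24.0, minimap2 2.31 (copies of transcripts) and edgeR 4.0.16 (TMM factors as an alternative), and were tested on simulated data. Gene positions came from GENCODE M1 (NCBIM37, the same build), with 21446 genes matched by Ensembl ID. Listed genes were matched by symbol, 3 by Ensembl ID and 2 by synonym and chromosome.

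The 10 genes and the lists were chosen with earlier results of these data known. The genes named are the 10, Pknox1, Pou5f1, Sox2 and Nanog. From each list they are the genes past a threshold with at least 20 reads, the gene with the most reads, and those with the lowest and highest ratio among genes with RPKM above 1, and a few others whose values had been seen. For the genes with the lowest ratio, the highest ratio and the highest wild type RPKM, the 2 nearest genes in both levels are named.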

Additional observations from a re-analysis of the deposited data

How the results depend on the processing

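The count of naive factors called higher stayed at 3, and named the same 3 genes, under 3 other scalings of the libraries and 2 pseudocounts. The 1/1.5 setting moved only the lower threshold, so it could not change this count. Neither could the RPKM filters, none and above 5, as the lowest Prep1-/- RPKM was 7.72. Relative to the chromosome median the count was 4, with Klf2 added, and with thresholds of 0.5 and 2 it was 1, Prdm14. The count called lower was 0 under every alternative, though the other thresholds were stricter and the filters could not add a gene. The median log2 ratio of the 10 genes was 0.36, and 0.40 with scaling by summed counts, 0.43 with the Prep1-/- library scaled to a median ratio of 1, 0.43 with TMM factors and 0.46 relative to the chromosome medians. Of 61 single-gene ratios under the alternatives, 59 kept their side of 1. The exceptions were Zfp42 at 1.03 relative to its chromosome and Dppa3 with the reads of its X-linked copy, at 1.04. Of the 61, 40 lay within the counting interval of the gene's main ratio. The others lay outside it, so the intervals do not cover the choice of processing. The count with a Prep1 peak was 2 of 10 genes, beside 21.0% of all placed genes. With scores of at least 100 it was 1, beside 3.69%, and with a window of 5 kb 1, beside 14.2%. With 100 kb it was 3, beside 46.1%, and no peak had a score of 500. By reads per kb of the longest transcript, an alternative chosen after seeing the data like that of the Dppa3 copy, 6 of 10 genes kept their wild type rank. No paired analysis was possible because each group holds 1 library. The depth limits Dppa3, Zfp42 and Prdm14 most, with 186 to 397 wild type reads each.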
